A study of Homo sapiens with 18 samples.

Results

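The genes described here are 10 that code for proteins of the neuronal microtubule cytoskeleton: the microtubule-associated proteins MAP1A, MAP1B, MAP2, MAPT and DCX, the stathmins STMN1, STMN2, STMN3 and STMN4, and the beta tubulin TUBB3. They were chosen by symbol from a table of 26372 gene symbols. All 10 passed a filter of a mean of at least 1 FPKM (fragments per unit of transcript length and of sequencing depth) over the 18 libraries, which 13785 genes passed. FPKM is scaled to transcript length, so levels can be set beside each other between genes.

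Microtubules are polymers of alpha and beta tubulin that give axons and dendrites their shape and carry the motors of axonal transport. Structural microtubule-associated proteins bind along the polymer and stabilise or bundle it, while stathmins bind free tubulin dimers and favour disassembly. TUBB3 is the beta tubulin that marks neurons, MAP2 is best known from dendrites, MAPT (tau) from axons and DCX (doublecortin) from young migrating neurons.

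RNA was sequenced from SH-SY5Y, an established cell line from a human neuroblastoma that takes on neuron-like features in culture. The cells were infected with lentivirus made from the FUGW plasmid and carrying ZNHIT3 as the wild-type sequence (WT), with the C14R substitution, or with a short deletion. The deletion is written ∆251-254 in the series' design text, and ∆251-254, ∆251-255 and ∆251-256 in the treatment labels of replicates 1, 2 and 3, and it is treated here as 1 group. Each construct was sequenced at day 0 and at day 18 of a differentiation in serum-free medium with all-trans retinoic acid at 10 μM, dibutyryl cyclic AMP at 2 mM, BDNF at 50 ng/ml and KCl at 20 mM, with 3 libraries in each of the 6 groups. All groups carried a delivered ZNHIT3 construct and the line's own ZNHIT3 gene, and no group without virus was analysed here. The labels do not say whether libraries of a group came from separate cultures, so p-values measure only the spread between these libraries. Day, medium, age of the culture and time since infection changed together and cannot be told apart.

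ZNHIT3 itself had means of 538, 424 and 302.5 FPKM with WT, C14R and the deletion at day 0, while the day 18 means were 1153, 653 and 301.5, a value that does not separate the delivered from the resident copy. The libraries held no counts, and their relative depth, read from the steps between low values, ran from 59.0% to 84.7% of the deepest library at day 0 and from 81.8% to 100% at day 18. Small RNA genes took 55% to 80.1% of the FPKM sum of a library at day 0 and 31.4% to 60.5% at day 18. A median-of-ratios scaling factor ran from 0.9825 to 0.9967 at day 0 and from 1.009 to 1.031 at day 18, so the days did not overlap in it. Of the neuronal markers other than the 10 genes, 9 of 9 tested were higher at day 18 in WT, and their summed level went from between 783 and 808 FPKM to between 1765 and 1894, with RBFOX3 under 1 FPKM on average at both days. Mesenchymal markers fell in 9 of 9 tested (sums of 690.1 to 863 FPKM, then 165 to 226.5) and proliferation markers in 7 of 7 (382 to 416, then 135.5 to 178). Of 7 noradrenergic markers tested 3 rose and 2 fell, with TH under 1 FPKM. Of the glial markers S100B rose in WT, while GFAP, SOX10, MBP, AQP4 and FOXD3 stayed under 1 FPKM on average at both days. Marker sums moved with day together with the 10 genes, and their part in the results below was not tested. In bulk RNA, a larger share of neuron-like cells and more RNA per cell cannot be told apart.

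By the GENCODE 29 annotation of GRCh38, all 10 are protein-coding genes. They include MAP1A (chr15:43510958-43531620), MAP1B (chr5:72107234-72209570), MAP2 (chr2:209424058-209734118), MAPT (chr17:45894382-46028334), DCX (chrX:111293779-111412429, minus strand), STMN1 (chr1:25884181-25906991, minus strand), STMN3 (chr20:63639705-63657682, minus strand) and TUBB3 (chr16:89921392-89938761). TUBB3 shares 1584 exonic bases on its own strand with the overlapping gene model AC092143.1, which is not in the table, and MAPT shares 75 exonic bases with the antisense gene MAPT-AS1. As AC092143.1 lies on the strand of TUBB3, TUBB3 values may hold its reads however strand was used. Whether the authors counted reads by strand is not given in the sources used here, so MAPT values may hold reads of MAPT-AS1. STMN1 shares 66 exonic bases on its own strand with MIR3917, which is among the gene symbols measured.

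Promoter sequence was available for 7 of the 10 genes as 16 windows, each of 250 bases before to 50 bases after an annotated start (RefSeq, GRCh38.p14). As the medium held a cyclic AMP analogue and retinoic acid, the windows were searched on both strands for the palindromic cAMP response element TGACGTCA and for the retinoic acid response element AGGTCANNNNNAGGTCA, and for the E-box CANNTG, the letters bound by neurogenic basic helix-loop-helix factors. The cAMP response element was in 0 of the 16 windows and in 1.85% of 35116 promoter windows of all genes, and the retinoic acid element was in 0 of 16 and in 0.0057% of all. An E-box was in 9 of 16 windows and in 68.7% of all. These counts describe letters in these windows only. The windows of the 2 genes with the largest rise among those with an entry, MAP1A and DCX, and of STMN1, the gene with the smallest rise, are printed 5′ to 3′ with each E-box in capitals. Where a gene has several windows the one with most E-boxes is shown. The MAP1A window (chr15:43510704-43511003, plus strand) has 69.3% GC, the DCX window (chrX:111411097-111411396, minus strand) 43.0% and the STMN1 window (chr1:25906370-25906669, minus strand) 72.7%.
MAP1A: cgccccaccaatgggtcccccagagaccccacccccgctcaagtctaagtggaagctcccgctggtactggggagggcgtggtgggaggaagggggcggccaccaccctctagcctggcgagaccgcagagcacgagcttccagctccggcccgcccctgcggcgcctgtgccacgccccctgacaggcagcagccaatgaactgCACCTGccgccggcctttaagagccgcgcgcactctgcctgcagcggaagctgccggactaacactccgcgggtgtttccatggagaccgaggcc
DCX: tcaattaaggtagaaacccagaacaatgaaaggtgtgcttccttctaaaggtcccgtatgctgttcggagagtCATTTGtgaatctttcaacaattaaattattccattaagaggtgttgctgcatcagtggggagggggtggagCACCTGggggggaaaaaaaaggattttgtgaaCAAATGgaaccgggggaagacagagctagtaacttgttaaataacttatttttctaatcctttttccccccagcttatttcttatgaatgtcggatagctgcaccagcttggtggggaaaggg
STMN1: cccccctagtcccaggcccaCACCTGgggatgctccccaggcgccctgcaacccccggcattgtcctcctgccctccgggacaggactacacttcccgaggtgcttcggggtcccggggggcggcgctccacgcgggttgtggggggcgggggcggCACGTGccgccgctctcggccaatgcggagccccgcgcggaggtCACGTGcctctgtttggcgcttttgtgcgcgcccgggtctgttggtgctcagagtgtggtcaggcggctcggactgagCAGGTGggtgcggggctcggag

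From day 0 to day 18 every one of the 10 genes rose with every construct, and the highest day 0 library of each gene lay below its lowest day 18 library over 9 libraries a day. The share of all genes whose days separate in this way was not counted. In the WT fit 10 of 10 were called higher (limma on log2(FPKM + 1), Benjamini-Hochberg adjusted p under 0.05), where 38.2% of all genes tested were called higher and 72.2% in either direction. The median log2 change of the 10 genes was 1.14 with WT, against 0.026 for all genes tested. Of all genes called, 52.9% were higher. With small RNA genes left out and the libraries rescaled, that share was 68.4%, the median of all genes was 0.206 and that of the 10 genes was 1.35. With C14R and with the deletion 10 of 10 were again called higher, against 37.9% and 38.6% of all genes, with medians of 1.13 and 1.23, and the fit averaged over the constructs also called 10 of 10, against 43.9%. An exact permutation test of 3 against 3 libraries gave 0.1 for each gene and construct, the smallest p this design allows.

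**Figure D1:**
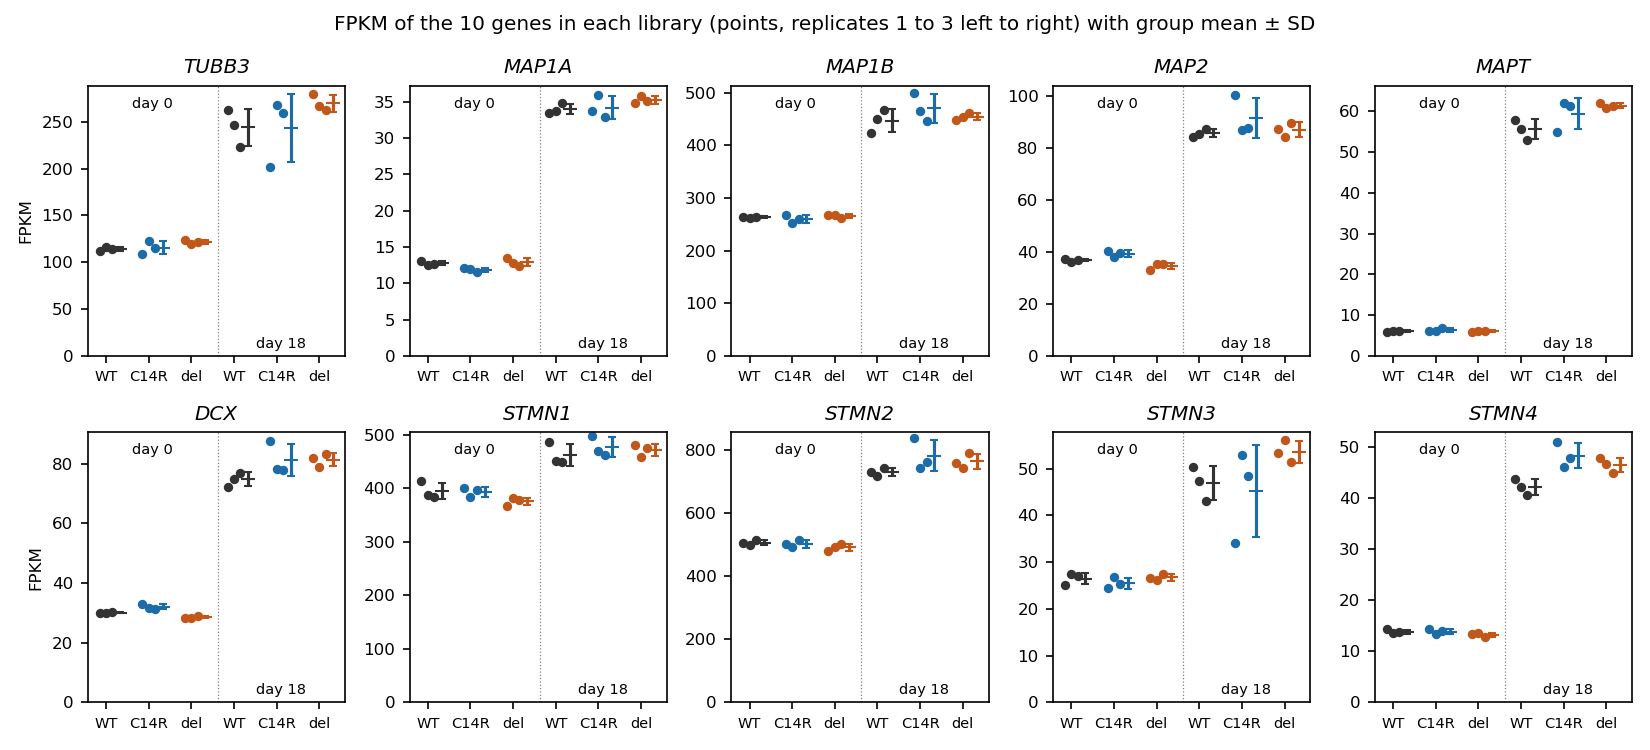
FPKM of each of the 10 genes (y axis, from 0) in the 18 libraries, drawn as points by construct and day, with the mean ± SD of the 3 libraries beside them. Every day 18 library lies above every day 0 library of the same gene, while the 3 constructs lie close together within a day, and C14R replicate 1 of day 18 is low for TUBB3 and STMN3.

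MAPT, which codes for tau, had the largest rise. With WT, in replicates 1 to 3, it measured 5.76, 6.11 and 6.17 FPKM at day 0, then 57.9, 55.7 and 53.0 at day 18. With C14R the values were 6.18, 6.05 and 6.90 and then 55.0, 62.0 and 61.3, and with the deletion 5.75, 6.23 and 6.05 and then 62.0, 60.7 and 61.3. MAPT was thus the lowest of the 10 genes in every library of day 0, and at day 18 it stood above STMN3, STMN4 and MAP1A in every library. The log2 change with WT was 3.01 (SE 0.0551, limma adjusted p = 1.82e-17), the 46th largest rise of 13785 genes, and the mean over 9 libraries was 9.58 times as high at day 18.

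The other structural proteins rose less. MAP2, the somatodendritic relative of MAPT, measured 37.4, 36.3 and 37.0 FPKM at day 0, then 84.3, 85.6 and 87.5 at day 18 with WT. Over all constructs MAP2 ran from 33.2 to 40.6 FPKM at day 0 and from 84.3 to 100.6 at day 18, and the highest value was that of C14R replicate 1. The log2 change with WT was 1.195 (SE 0.0491, limma adjusted p = 5.56e-13). MAP1A, found mainly in mature neurons, measured 13.1, 12.5 and 12.7 FPKM and then 33.5, 33.7 and 34.8 with WT, a log2 change of 1.35 (SE 0.0426, adjusted p = 1.78e-14). MAP1B, its relative that is prominent in growing axons, was already at 264, 263 and 265 FPKM at day 0 and reached 424, 451 and 467.5 with WT. MAP1B changed by 0.76 on the log2 scale (SE 0.0437, adjusted p = 5.55e-11), so the more abundant member of this pair had the smaller fold. After quantile normalization the changes with WT were nearer to each other, 1.08 for MAP1B and 1.32 for MAP1A. DCX, which stabilises microtubules in migrating neurons, measured 30.0, 29.9 and 30.4 FPKM with WT at day 0. At day 18 DCX measured 72.3, 74.97 and 77.1 FPKM, a log2 change of 1.28 (SE 0.043, adjusted p = 3.88e-14).

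The 4 stathmins differed widely in level and in change. STMN2 (SCG10), a stathmin of growing axons and the most abundant of the 10 genes in every library, measured 504, 499 and 514 FPKM at day 0, then 729, 715 and 741 at day 18 with WT. Its log2 change was 0.52 (SE 0.0439, limma adjusted p = 8.23e-09), and it was 1.03 after quantile normalization. STMN1, the stathmin shared by dividing cells and neurons, measured 413, 388 and 385 FPKM and then 487, 451.5 and 449.8 with WT. STMN1 had the smallest rise of the 10, 0.23 on the log2 scale (SE 0.0428, adjusted p = 0.000139), at the 63.7th percentile of all genes tested. Quantile normalization gave STMN1 a change of 0.58 and taking out the GC trend within each library gave 0.16 (limma adjusted p = 0.00303). The direction of STMN1 thus held while the size of its change depended on the scaling, as it did for STMN2 and MAP1B.

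STMN4 and STMN3 are neuronal stathmins of low level. STMN4 measured 14.3, 13.5 and 13.8 FPKM at day 0, then 43.6, 42.1 and 40.5 at day 18 with WT. Its log2 change of 1.53 (SE 0.0455, limma adjusted p = 7.74e-15) was the second largest of the 10 genes. STMN3 measured 25.1, 27.4 and 26.9 FPKM and then 50.3, 47.4 and 43.0 with WT, a log2 change of 0.80 (SE 0.107, adjusted p = 3.13e-06). STMN3 had the largest SE of the 10, and with C14R its day 18 libraries measured 34.2, 53.0 and 48.5 FPKM, the widest spread relative to the mean of any gene and group (SD 9.81, n = 3, 21.7% of the mean).

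TUBB3, the neuronal beta tubulin, measured 112, 116.5 and 114 FPKM at day 0, then 263, 246 and 223.5 at day 18 with WT. With the deletion it measured 124, 119 and 122 and then 279.7, 267 and 262.5 FPKM, and with C14R 109, 123 and 115 and then 201, 268 and 259. Replicate 1 of C14R was the lowest of the 9 day 18 libraries and still lay above the highest day 0 library, 123.7 FPKM. The log2 change with WT was 1.09 (SE 0.0818, limma adjusted p = 2.05e-09).

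**Figure D2:**
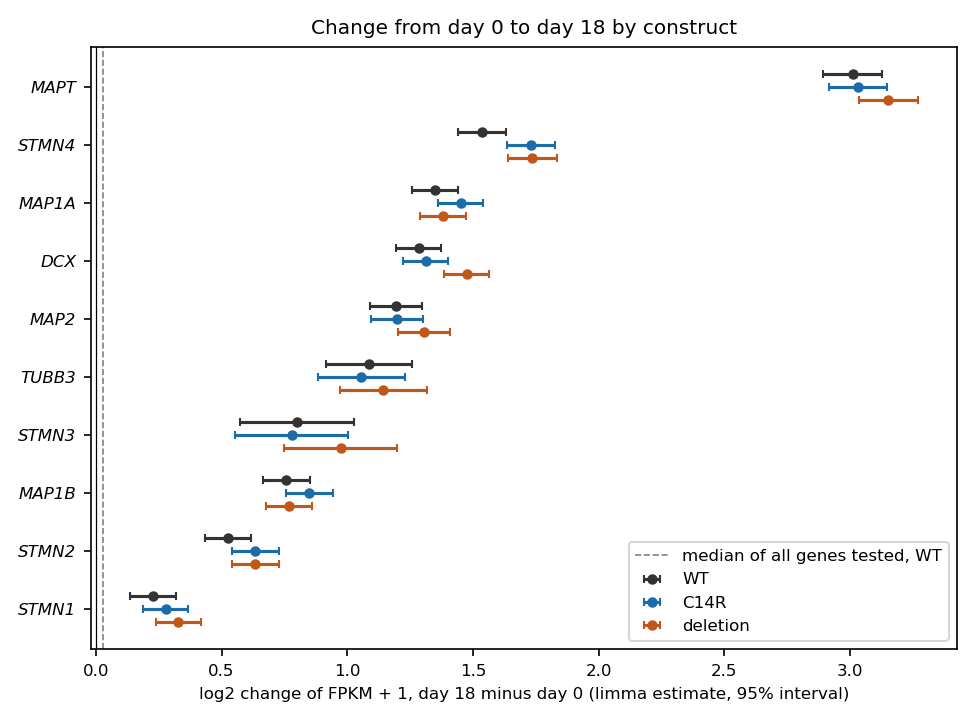
Log2 change of FPKM + 1 from day 0 to day 18 (x axis, limma estimate with 95% interval) for each gene (y axis) with WT, C14R and the deletion; the dashed line is the median of all genes tested with WT. MAPT stands apart at 3.01 to 3.15, STMN1 is nearest to the median at 0.23 to 0.33, and MAPT and STMN4 have the largest changes with each construct.

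Because genes of a family were measured in the same library, a scaling factor shared by all genes of a library drops out of their balance. An effect that differs with level or GC content does not drop out, and the paired genes differ in both (for example 57.4% GC for MAPT and 42.1% for MAP2). The ratio of MAPT to MAP2 was between 0.152 and 0.176 in the 9 day 0 libraries and between 0.547 and 0.720 in the 9 day 18 libraries, 4.01 times as high on the log-scale mean. The ratio of MAP1A to MAP1B went from between 0.0442 and 0.0504 to between 0.0674 and 0.0791 (1.59 times). Both pairs therefore moved toward the member that was lower at day 0. STMN1 made up 40.9% to 43.2% of the summed FPKM of STMN1 to STMN4 at day 0 and 34.9% to 37.2% at day 18. TUBB3 made up 11.2% to 12.3% of the beta tubulin sum and then 18.4% to 21.7% (1.71 times). The days did not overlap in any of these 4 measures. An exact two-sided permutation test that exchanged days within each construct gave p = 0.00025 for each, also after Benjamini-Hochberg adjustment over the 4, which is the smallest p its 8000 relabelings can give.

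**Figure D3:**
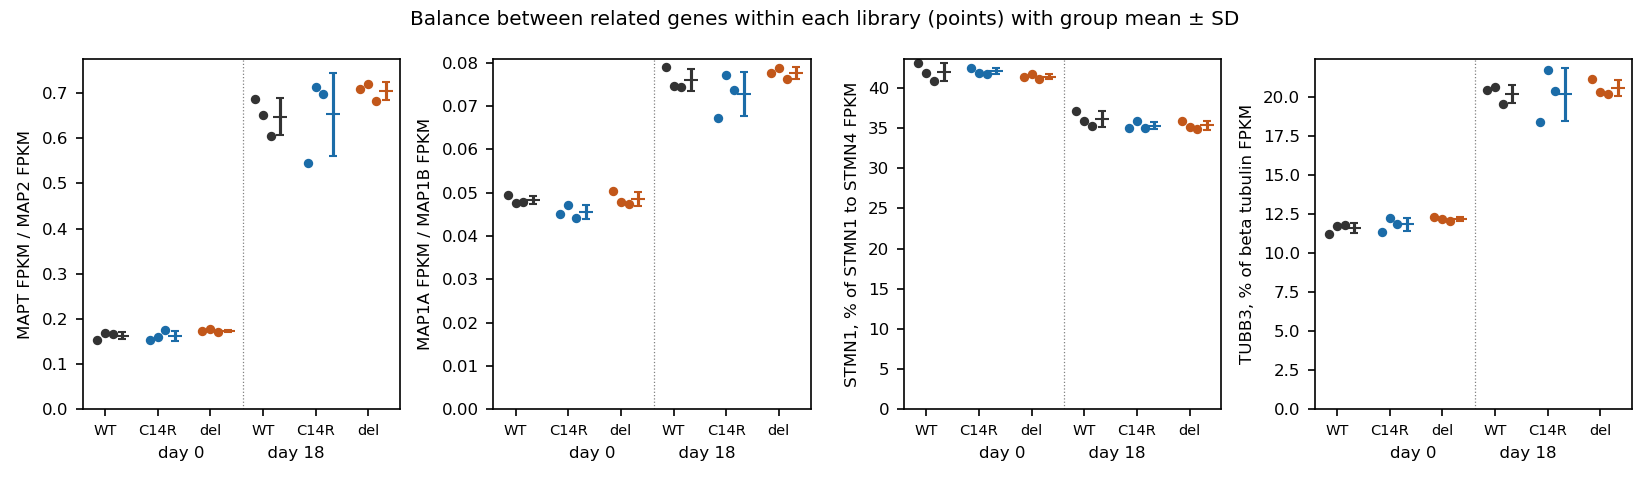
Balance between related genes in each library (points) by construct and day with the mean ± SD of 3 libraries: MAPT to MAP2 and MAP1A to MAP1B FPKM ratios, STMN1 as a percent of the 4 stathmins and TUBB3 as a percent of beta tubulins, all from 0. STMN1's share is lower at day 18 and the other measures are higher, with no overlap between days, and C14R replicate 1 of day 18 is the lowest day 18 library for MAPT to MAP2, MAP1A to MAP1B and TUBB3.

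The beta tubulins show what TUBB3 moved against. TUBB, the most abundant isotype, went from a median of 62.3% of the beta tubulin sum to 48.5%, and the ubiquitous isotype TUBB4B from 11.2% to 5.89%. TUBB2B went from 10.5% to 17.4% and TUBB2A from 1.16% to 4.22%. The sum itself ran from 958.5 to 1010 FPKM at day 0 and from 1096 to 1324 at day 18. Beta tubulin genes are close in sequence, so reads could have been divided between them in the authors' counting, and the shares carry that limit. Within the stathmins, STMN2 went from a median of 53.9% to 56.9% of the sum, STMN3 from 2.87% to 3.77% and STMN4 from 1.47% to 3.5%.

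Within a day the 3 constructs were close. Of the 10 genes, 0 were called between C14R and WT at day 0 (0% of all genes called) and at day 18 (0.0363%), 0 between the deletion and WT at day 0 (0.029%) and at day 18 (0.0725%), and 0 between C14R and the deletion at day 0 (0.058%) and at day 18 (0.029%). In the same order, 1, 3, 0, 3, 3 and 1 of the 10 had an unadjusted limma p under 0.05. Of all 13785 genes tested, 388, 1535, 857, 1576, 1357 and 1539 had such a p. Fits with array weights, which give noisier libraries less weight, called 0, 1, 0, 0, 2 and 0. Over all 13785 genes tested these fits called 2, 205, 5, 95, 95 and 9, so they called more genes in general. For most genes the order of the 3 constructs within a day therefore rests on differences that did not pass the test, whereas each step between days passed it. The 95% intervals of the 40 differences between a variant and WT lay between -0.30 and 0.42 on the log2 scale, both ends set by STMN3 at day 18, and so do not exclude small differences.

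**Figure D4:**
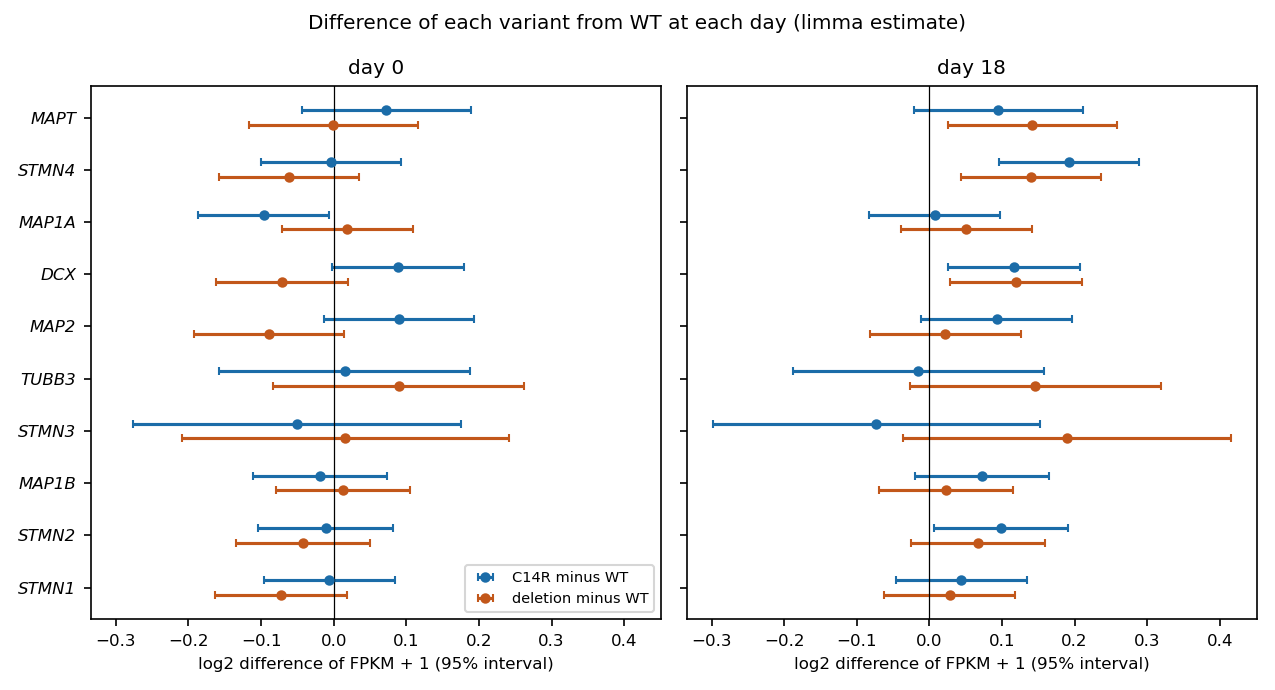
Difference of C14R and of the deletion from WT in log2(FPKM + 1) (x axis, limma estimate with 95% interval) for each gene (y axis) at day 0 (left) and day 18 (right). At day 18 the 10 deletion estimates are all above 0 and 8 of 10 C14R estimates are, none called after adjustment, and STMN4 with C14R lies farthest from 0 relative to its interval.

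STMN4 at day 18 was the nearest to a call. Its 3 WT libraries measured 43.6, 42.1 and 40.5 FPKM, its C14R libraries 50.9, 45.9 and 47.9 and its deletion libraries 47.7, 46.7 and 44.9. All libraries of both variants thus lay above all WT libraries. C14R was higher than WT by 0.19 on the log2 scale (95% interval 0.10 to 0.29, limma adjusted p = 0.134) and the deletion by 0.14 (0.04 to 0.24, adjusted p = 0.262). Array weights gave C14R 0.18 with an adjusted p of 0.0315, and leaving out C14R replicate 2 of day 18 gave 0.23 with 0.0405, and the adjusted p was above 0.05 without any other library. At day 0 the STMN4 differences were -0.0035 and -0.06. The change of the difference between days was 0.20 for C14R (0.06 to 0.33, adjusted p = 0.707) and 0.20 for the deletion (0.07 to 0.34, adjusted p = 0.466), so it did not pass the test either.

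At day 18 the deletion had positive differences from WT in 10 of 10 genes, with a median of 0.09 on the log2 scale against 0.0046 for all genes tested. The groups were fully separated for MAPT (0.14, limma adjusted p = 0.349), DCX (0.12, 0.308), STMN2 (0.07, 0.592), STMN3 (0.19, 0.528) and STMN4. Full separation of the deletion from WT was also seen at day 0, with MAP2, DCX, STMN1 and STMN4 lower and TUBB3 higher. Full separation of 3 against 3 libraries corresponds to an exact permutation p of 0.1. The share of all genes separated in this way was not counted, so the number of separated genes is only a description. The 10 values come from the same 6 libraries and are not separate evidence of a direction. DCX was lower in all deletion libraries than in all WT libraries at day 0 (28.3, 28.4 and 29.1 against 30.0, 29.9 and 30.4 FPKM) and higher at day 18 (81.8, 79.0 and 83.2 against 72.3, 74.97 and 77.1). The change of that difference between days was 0.19 (95% interval 0.06 to 0.32, adjusted p = 0.461). Of the 10 genes, 0 were called in the interaction of C14R with day (0% of all genes) or of the deletion with day (0.0145%). An unadjusted limma p under 0.05 was found for 1 and 2 of the 10 genes, and for 790 and 1014 of all 13785 genes tested.

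At day 0 the 2 variants differed most in MAP2 and DCX. MAP2 measured 40.6, 38.1 and 39.5 FPKM with C14R and 33.2, 35.3 and 35.4 with the deletion, with WT between them at 37.4, 36.3 and 37.0. The difference of C14R from the deletion was 0.18 on the log2 scale (95% interval 0.08 to 0.28, limma adjusted p = 0.237). DCX measured 33.0, 31.8 and 31.5 FPKM with C14R against the deletion values given above, a difference of 0.16 (0.07 to 0.25, adjusted p = 0.233). With array weights both passed, MAP2 at an adjusted p of 0.0312 and DCX at 0.0365. At day 18 the differences of C14R from the deletion were 0.07 for MAP2 and -0.0036 for DCX. The 4 within-library ratios differed between a variant and WT by at most 0.12 on the log2 scale in 16 comparisons. In 3 of these the exact permutation p was 0.1, the smallest that 3 against 3 libraries can give, so this test cannot make a call here.

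C14R replicate 1 of day 18 stood apart in a way that split the 10 genes. Against the mean of the other 2 C14R libraries of that day it was lower in STMN3 (-0.56 on the log2 scale), TUBB3 (-0.39), MAPT (-0.16) and MAP1A (-0.03). It was higher in MAP2 (0.20), DCX (0.16), STMN2 (0.15), MAP1B (0.14), STMN4 (0.12) and STMN1 (0.09). The 4 genes that were lower have the most GC-rich transcripts of the 10 (63.5%, 61.2%, 57.4% and 55.3% in the longest annotated transcript), and the 6 that were higher lie between 39.3% for STMN1 and 50.3% for STMN4. The pattern is a description of 10 values in 1 library. Small RNA genes took 31.4% of the FPKM sum of that library, against 51.5% and 52.1% in C14R replicates 2 and 3 of day 18. Any part of this in the pattern was not tested.

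**Figure D5:**
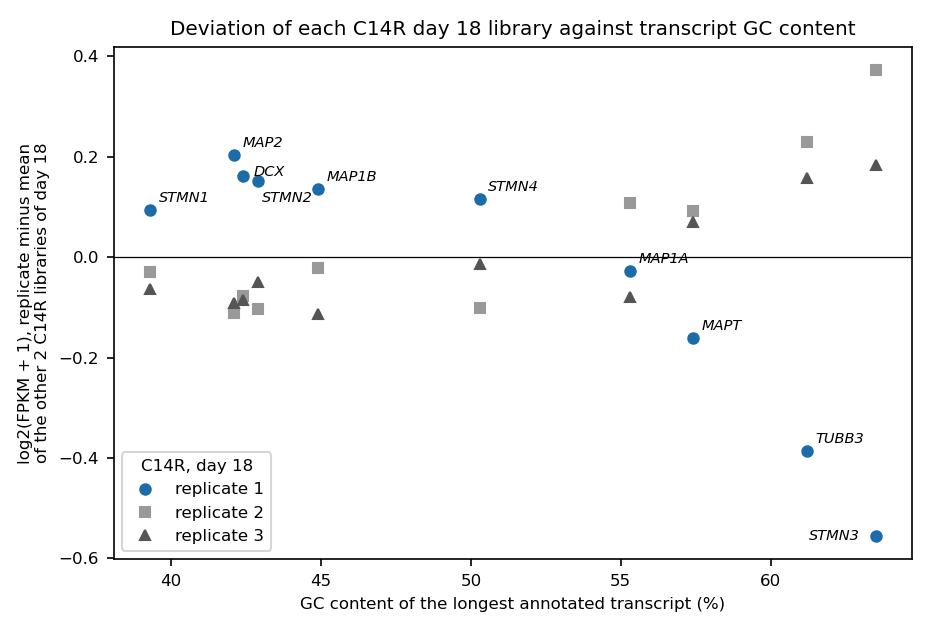
Deviation of each C14R library of day 18 from the mean of the other 2 (y axis, log2(FPKM + 1)) against the GC content of the longest annotated transcript (x axis, percent) for the 10 genes. Replicate 1 (circles, named) falls from 0.20 for MAP2 to -0.56 for STMN3 as GC content rises. The deviations of a gene sum to 0 by construction, so that replicates 2 and 3 lie mostly on the other side of 0 is no separate observation.

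Without that library STMN3 rose by 0.96 with C14R from day 0 to day 18 rather than 0.78, and TUBB3 by 1.18 rather than 1.06, both still called. The difference of C14R from the deletion at day 18 was -0.26 for STMN3 (limma adjusted p = 0.433) with it and -0.08 (adjusted p = 0.985) without it, and -0.14 after removal of each library's GC trend. For TUBB3 it was -0.16 (adjusted p = 0.453) with it, -0.03 without it and -0.05 after removal of the trend. The difference of C14R from WT at day 18 was -0.07 for STMN3 and -0.02 for TUBB3 with that library, and 0.11 for both without it, and neither was called either way. Over the 9 libraries of day 18, deviations from the group mean had their highest Pearson r between MAPT and TUBB3 (0.99) and their lowest between MAP2 and STMN3 (-0.97). With the point of that library left out these were 0.97 and -0.92 over 8 libraries. The C14R mean still included that library, so these r values are not free of it. Some pairs did not split by GC content with that point left out. MAP1A, on the GC-rich side, had an r of -0.12 with TUBB3, and STMN1, on the other side, had 0.33 with TUBB3. The points share library, depth and base composition, and these are given as a description.

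Other microtubule genes were taken from 6 lists chosen by role. In WT, 163 of 174 listed genes were tested, and 95 were called higher and 38 lower at day 18, against 38.2% and 34% of all genes, with a median log2 change of 0.33. Among 40 other structural and doublecortin-family genes, 30 rose and 6 fell (median 0.51). DCLK3, a doublecortin-like kinase, went from 0.938 ± 0.109 to 14.9 ± 0.157 FPKM (SD, n = 3). DPYSL3, a collapsin response mediator that binds tubulin, went from 64.4 ± 2.58 to 374 ± 1.79. NAV2, a neuron navigator gene, fell from 39.5 ± 1.69 to 15.9 ± 0.705 FPKM and MAP7D3 from 6.21 ± 0.411 to 3.04 ± 0.253.

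Of 33 axonal transport motor genes 24 rose and 3 fell (median 0.51). The neuronal kinesins KIF5A and KIF1A rose from 11.8 ± 0.328 to 72.8 ± 0.55 and from 20.2 ± 0.678 to 77.3 ± 1.66 FPKM (SD, n = 3). KIF26B fell from 24.96 ± 0.481 to 6.12 ± 0.258 FPKM and KIF1C from 6.90 ± 0.0221 to 2.08 ± 0.108. Of 28 kinases and phosphatases that act on these proteins 20 rose and 1 fell (median 0.51). The rises were led by PPP2R2C, a regulatory subunit of protein phosphatase 2A (log2 change 1.82, limma adjusted p = 5.82e-14), and CDK5R2, an activator of the tau kinase CDK5 (1.52, adjusted p = 9.21e-11). MARK3, which phosphorylates MAPs, was the gene that fell, by 0.29 (adjusted p = 6.38e-05).

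Genes of tubulin itself were mixed. Of 15 other tubulin isotypes 7 rose and 4 fell (median 0.20), with TUBB2A (log2 change 2.23) and TUBB4A (1.58) leading the rises and TUBB6 (-1.41) and TUBB4B (-0.66) the falls. Of 28 genes for tubulin modification, folding and severing 14 rose and 6 fell (median 0.20). They were led by AGTPBP1, a deglutamylase (1.77), and KATNAL1, a katanin-like severing protein (1.10), and by TTLL12 (-1.40) and FIGNL1 (-0.52). Mitotic spindle microtubule genes went the other way from the 10 genes. Of 19 tested, 18 fell and 0 rose (median -1.18), and AURKB, a mitotic kinase, and KIF20A, a cytokinesis kinesin, fell by 1.70 and 1.66 on the log2 scale. None of the 163 genes was called between constructs.

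For each of the 10 genes the 2 tested genes with the most similar pattern over the 18 libraries were taken by Pearson correlation of log2(FPKM + 1). MAP2 was most like KIF5C (r 0.998) and DCX (0.998), the latter another of the 10, and DCX was most like the neurofilament gene INA (0.999). MAPT was most like ARHGAP36 and SYT11, STMN4 most like NR2F1 and TANC2, and MAP1A most like C7 and CADM3-AS1, all at 0.998 to 0.999. MAP1B was most like KIDINS220 and TCAF1, and STMN2 most like PLCXD3 and SESN3. TUBB3 was most like PSAP and FADS2 (both 0.997), and STMN3 most like APC2 (0.995) and LSS (0.992). STMN1 had no gene above 0.99, its nearest being TTC19 (0.977) and YWHAQ (0.976), while MAPT had 599 such genes. The 18 libraries fall into 2 days, so any gene with a large change between days reaches a high r, and the values are a description.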

How the data were processed

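The data are 18 RNA-seq libraries of SH-SY5Y cells. The labels' protocols give TRIzol extraction, Ribo-Zero depletion of ribosomal RNA and NEBNext Ultra library preparation. The authors deposited FPKM, with 1 value per gene symbol and library, and the unit is taken from the name of the deposited table. The submitters' processing notes name TopHat2, STAR, Cufflinks 2.2.1 and hg38, and the annotation, the use of strand and any further scaling are not given in the sources used here. Samples were grouped by the construct and day in their titles, and 0 columns lacked a sample.

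Tests used log2(FPKM + 1), a scale that understates changes of genes with low values, for genes with a mean of at least 1 FPKM. A linear model of the 6 group means was fitted over all 18 libraries with limma 3.58.1 in R 4.3.3, with a mean-variance trend. Benjamini-Hochberg adjustment ran over all 13785 genes in each comparison, at a threshold of 0.05. In data simulated for day 18 against day 0 in WT, with 200 of 13785 genes changed, the fit recovered 22% of genes changed by 1.2-fold, 84.5% at 1.5-fold and 98.5% at 2-fold. In the measured data 9946 genes were called with day in WT and at most 10 in a comparison between constructs. Recovery depends on how many genes change, so these rates do not carry over to those comparisons. FPKM carries no counts, so absolute depth is unknown and no counting interval is given.

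The genes and lists were chosen with earlier results of these data known. Named genes were the 10 members, the 2 largest rises and 2 largest falls past the threshold with day in WT in each list, any list gene called between constructs, and the 2 genes most correlated with each member. Positions and GC content came from GENCODE 29, which matched 90.2% of symbols. The alternatives changed the pseudocount (0.1), the filter (none, or a mean of at least 5 FPKM), the scaling (median of ratios, quantile, or rescaling without small RNA genes), the model (replicate block, array weights, no variance trend, only the libraries compared) and the call (an absolute log2 change of at least 1), or left out each library in turn. Taking out the GC trend within each library (lowess, span 0.3), with and without the block, was added after the data were seen. Protein sequences were not used here. Of the marker genes, 2 are not reported here.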

Additional observations from a re-analysis of the deposited data

How the results depend on the processing

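All 10 genes were called higher at day 18 with each construct under every alternative run except the rule of an absolute log2 change of at least 1, which left 6 of 10 with WT, with C14R, with the deletion and averaged over the constructs, without MAP1B, STMN1, STMN2 and STMN3. The same rule left 51 of the other microtubule genes called in WT (31 higher, 20 lower), against 133. Of 3710 values of single genes under alternatives 0 reversed as called values, 16 lost their call, all by that rule, and 4 gained one. Array weights raised the count of the 10 genes called from 0 to 1 between C14R and WT at day 18 (STMN4) and from 0 to 2 between C14R and the deletion at day 0 (MAP2 and DCX). Over all genes tested the calls in these 2 comparisons went from 5 to 205 and from 8 to 95. With each library left out in turn, the count of the 10 genes between C14R and WT at day 18 ranged from 0 to 1. The 1 was STMN4 without C14R replicate 2 of day 18, and the cause was not tested. Deviations of samples with the same replicate number had 6 of 45 correlations above 0.1 (from -0.363 to 0.168). Samples with different numbers had 19 of 90 (from -0.169 to 0.268). These counts show no pairing by number over all groups together, but they pool all pairs of groups, so a pairing within 1 construct is not excluded. With the replicate number as a block, 10 of the 10 genes were called with day in each construct and 0 between constructs, and 133 other microtubule genes in WT. Absolute depth is unknown. Relative depth ran from 59.0% to 84.7% of the deepest library at day 0 and from 81.8% to 100% at day 18. Depth thus differed between libraries of the same day, which limits what can be said of small differences between constructs.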
